A study of Mus musculus with 3 samples.

Results

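A set of 8 genes of the Wnt pathway was followed in mouse embryonic stem cells whose translation had been blocked. They were the listed symbols Ctnnb1, Apc, Axin2, Sp5, Lef1, Tcf7, Tcf7l1 and Nkd1, and all 8 were found among the 32285 genes of the count tables. The rule that lists them uses no measured value, but the members were chosen with earlier results of these data known. The cells were E14 mESCs of 129/Ola background, grown in medium with serum and leukemia inhibitory factor and with no added Wnt protein or GSK3 inhibitor named in the labels. One library came from an ethanol control (0.007% ethanol for 6 h), 1 from cells given 250 µg/mL cycloheximide for 3 h and 1 from cells given the same dose for 6 h, both in 0.007% ethanol. Cycloheximide stops the ribosome during elongation. The control matched the 6 h exposure, and no control of 3 h was analysed here. Both treated libraries are set against the same control, so their ratios are not independent of each other. All libraries came from 1 cell line, and the cells had been frozen before barcoding.

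In canonical Wnt signalling, a destruction complex built on Axin and Apc holds beta-catenin for phosphorylation by CK1 and GSK3, after which the protein is degraded. When a Wnt ligand engages Frizzled and Lrp5 or Lrp6, the complex is inhibited, and beta-catenin enters the nucleus and binds factors of the Tcf and Lef family, which carry an HMG box. In embryonic stem cells Tcf7l1 acts mainly as a repressor of pluripotency genes and beta-catenin relieves that repression, while Tcf7 and Lef1 can act as activators. Axin2, Sp5, Nkd1 and Lef1 are widely used as target genes of the pathway, and Axin2 and Nkd1 feed back on it as inhibitors.

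Barcodes with at least 15000 UMIs (unique molecular identifiers, 1 per captured RNA molecule) and 1 to 20% mitochondrial UMIs were taken as cells. This gave 2187 cells and 111447486 UMIs in the control, 1739 cells and 106842407 UMIs after 3 h, and 2554 cells and 140321458 UMIs after 6 h, with a median of 43160 to 51726 UMIs per cell. The lower mitochondrial limit left out 62 barcodes in the control, 1 after 3 h and 8 after 6 h. Pairs of libraries shared 3, 3 and 1 cell barcodes. All 8 pluripotent stem cell markers were above a mean of 10 CPM (UMIs of a gene scaled to a common library total), with a summed level of 7067 to 7980 CPM per library, of which Dppa5a gave 4771 to 5475 CPM. Zfp42 had 454.9, 592.0 and 239.6 CPM in the control, after 3 h and after 6 h, Utf1 544.8, 501.1 and 328.9 CPM, and Sox2 212.5, 285.1 and 146.0 CPM. Pou5f1 had 532.6, 579.3 and 464.7 CPM, Tdgf1 363.7, 425.7 and 313.2 CPM, and Esrrb 64.0, 95.1 and 57.7 CPM. All of these were lowest after 6 h, whereas Nanog (123.4, 174.7 and 145.4 CPM) and Dppa5a were lowest in the control. The fibroblast markers summed to 1.29 to 2.48 CPM with Col3a1, Lum and Postn at 0, and most of that sum was Thy1 (2.11, 1.37 and 1.05 CPM). The 5 neural markers summed to 81.8 CPM in the control, 58.7 CPM after 3 h and 39.4 CPM after 6 h. That difference lay in Tubb3 (65.3, 35.1 and 18.6 CPM), while Nes had 7.15, 9.13 and 11.03 CPM, Sox1 6.85, 10.2 and 6.61 CPM and Pax6 2.55, 4.18 and 3.10 CPM. The summed levels were 23.9, 28.1 and 21.6 CPM for 6 endoderm markers and 4.32, 4.63 and 7.01 CPM for 5 mesoderm markers. For 5 trophoblast markers they were 38.6, 40.1 and 37.1 CPM, with Elf5 at 0, but Tfap2c was higher with exposure (7.74, 16.8 and 18.3 CPM) and Krt8 lower (24.2, 17.9 and 14.0 CPM). The part of these markers in the results was not tested. The markers of 2-cell-like and of blood cells summed to at most 1.62 CPM, with Zfp352 and Hbb-bs at 0.

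Each condition had 1 library, so no test between conditions was made and no difference below has a replicate check. Intervals are 95% exact intervals for counting error only, namely Poisson for levels, conditional binomial for ratios and Clopper-Pearson for shares of cells. A difference is called past the fold when it is 1.5-fold or more. CPM is not scaled by gene length, so levels of different genes are not compared as amounts of transcript. In libraries of summed cells, fewer cells with a transcript and less of it per cell cannot be told apart from the sum alone. Shares of cells are given beside the sums, but in sparse counts a share follows the mean, so shares do not separate these readings either.

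Across the 8 genes, the transcript of the repressor Tcf7l1 was higher after cycloheximide, while those of beta-catenin (Ctnnb1), Axin2, Tcf7 and Sp5 were lower, and the differences from the control were larger after 6 h than after 3 h. Tcf7l1 was 1.37-fold the control after 3 h and 1.80-fold after 6 h. Sp5 was 1.73-fold lower after 3 h and 5.11-fold lower after 6 h, and Axin2 was 2.02-fold lower after 6 h. Apc was lower too, and its treated libraries overlapped. Lef1 and Nkd1 had few UMIs, and the intervals of their log2 ratios held 0 at both times. After 6 h the interval was -0.51 to 0.97 for Lef1 and -0.67 to 0.15 for Nkd1. Both lay above that of Axin2 (-1.18 to -0.85), so neither was as low as Axin2 by counting error.

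**Figure D1:**
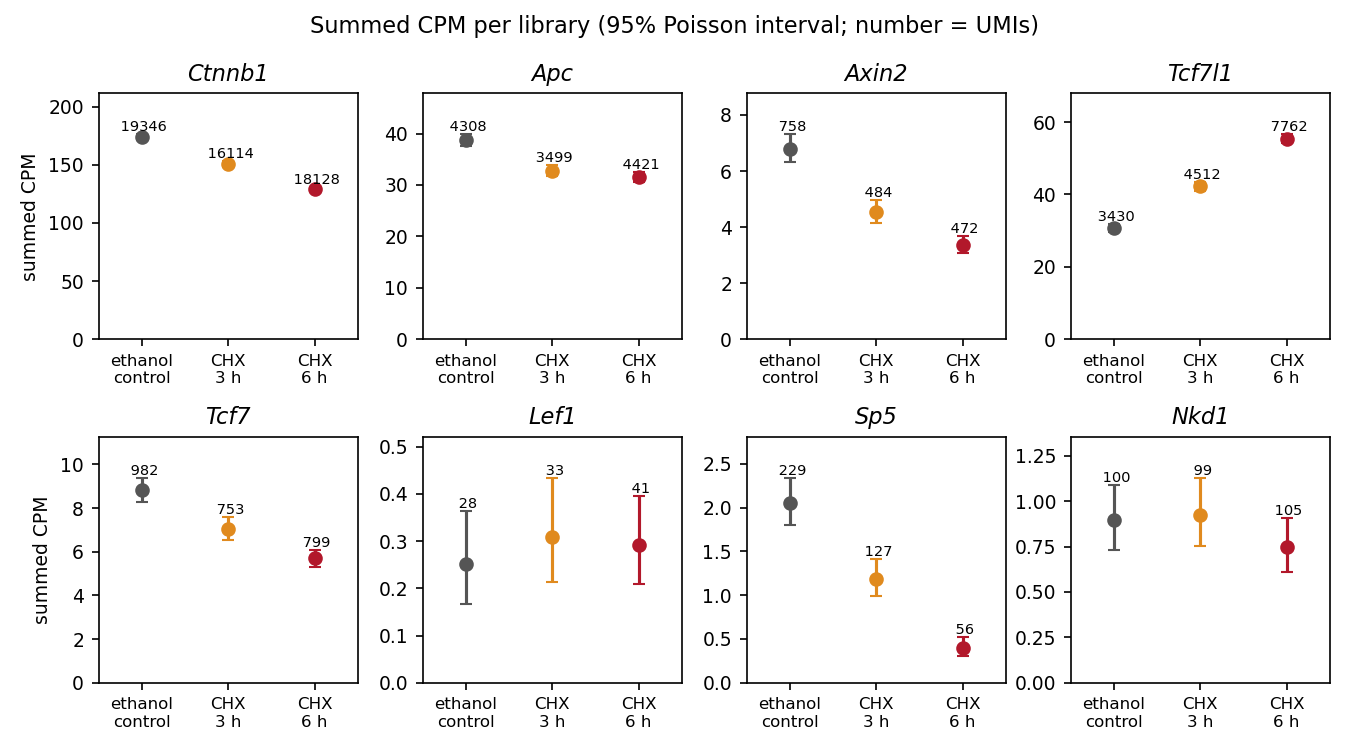
Summed CPM (y axis, from 0, scaled per gene) of the 8 genes in the ethanol control, after 3 h and after 6 h of cycloheximide (CHX), with 95% Poisson intervals and the number of UMIs above each point. Tcf7l1 goes from 30.8 to 55.3 CPM, Sp5 from 2.05 to 0.399 CPM and Axin2 from 6.80 to 3.36 CPM, while the intervals of Lef1 and Nkd1 overlap in all libraries.

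Among the target genes of the 8, the 2 furthest below the control, Sp5 and Axin2, are shown with the 250 bases before their annotated starts, because factors of the Tcf and Lef family bind DNA with a known core. Sequences are those of RefSeq on GRCm38.p6, 5′ to 3′ on the plus strand of each gene, at chr2:70474673-70474922 for Sp5 and chr11:108920099-108920348 for Axin2. Capitals mark every match to the core CTTTGAA, to its variant CTTTGAT, to the variant CTTTGTA or to the variant CTTTGTT, or to a reverse complement of these, so both strands were searched. No match overlapped another.
Sp5: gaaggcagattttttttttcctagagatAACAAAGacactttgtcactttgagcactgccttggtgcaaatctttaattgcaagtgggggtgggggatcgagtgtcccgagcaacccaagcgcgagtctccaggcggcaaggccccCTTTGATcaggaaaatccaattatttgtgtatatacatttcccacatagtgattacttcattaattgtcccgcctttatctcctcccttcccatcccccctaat
Axin2: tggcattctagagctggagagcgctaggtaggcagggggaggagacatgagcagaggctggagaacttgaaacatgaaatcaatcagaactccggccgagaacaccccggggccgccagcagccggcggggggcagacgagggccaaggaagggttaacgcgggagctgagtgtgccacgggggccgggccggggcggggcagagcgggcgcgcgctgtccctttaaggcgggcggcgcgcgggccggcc
The Sp5 window held 2 matches, AACAAAG beginning 222 bases before the start and CTTTGAT beginning 104 bases before it. The Axin2 window held none of these letters. Of all 32851 windows of the same length, 14.8% held at least 1 match and 1.43% held 2 or more. Windows were found for 7 of the 8 genes, 12 windows in all, and 2 of these had a match, namely Sp5 and 1 of the 4 windows of Lef1. A match describes the letters only, and binding was not measured.

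Ctnnb1 encodes beta-catenin, the transcriptional coactivator of the pathway and a partner of cadherins at junctions (ENSMUSG00000006932, chromosome 9, 120929216 to 120960507, plus strand, GENCODE M21 on GRCm38). It had 19346 UMIs, that is 173.6 CPM in the control (171.2 to 176.1), 16114 UMIs, that is 150.8 CPM after 3 h (148.5 to 153.2) and 18128 UMIs, that is 129.2 CPM after 6 h (127.3 to 131.1). The control was highest and the 6 h library lowest, with intervals that did not overlap. The log2 ratio to the control was -0.20 after 3 h (-0.23 to -0.17) and -0.43 after 6 h (-0.46 to -0.40). The 3 h sign rested on the scaling, since by mean UMIs per cell the ratio was 0.067. That measure keeps differences in total RNA and also those in depth and capture, which cannot be told apart here. At 6 h the ratio was -0.32 by that measure and -0.71 with TMM factors, which aim to centre the ratios of most genes near 0. With these factors the median over 7608 genes was -0.12 at 6 h. Ulk4, on the opposite strand, shares 759 exonic bases with Ctnnb1 and had 123, 93 and 99 UMIs in the same order, so it is small beside the Ctnnb1 count.

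Apc encodes a scaffold of the destruction complex (ENSMUSG00000005871, chromosome 18, 34220924 to 34322552, plus strand). It had 4308 UMIs, that is 38.7 CPM in the control (37.5 to 39.8), 3499 UMIs, that is 32.7 CPM after 3 h (31.7 to 33.9) and 4421 UMIs, that is 31.5 CPM after 6 h (30.6 to 32.4). Both treated libraries were below the control, and their own intervals overlapped. The log2 ratio was -0.24 after 3 h (-0.30 to -0.17) and -0.30 after 6 h (-0.36 to -0.23). By mean UMIs per cell the 3 h ratio was 0.031, so that sign also rested on the scaling.

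Axin2 encodes the inducible Axin scaffold, a feedback inhibitor and target of the pathway (ENSMUSG00000000142, chromosome 11, 108920349 to 108950783, plus strand). Under 10 CPM throughout, it had 758 UMIs, that is 6.80 CPM in the control (6.33 to 7.30), 484 UMIs, that is 4.53 CPM after 3 h (4.14 to 4.95) and 472 UMIs, that is 3.36 CPM after 6 h (3.07 to 3.68). The 3 intervals did not overlap. The log2 ratio was -0.59 after 3 h (-0.75 to -0.42), just at the 1.5-fold line, and -1.02 after 6 h (-1.18 to -0.85). It kept its sign under all 9 alternatives at both times, between -0.76 and -0.32 after 3 h and between -1.30 and -0.91 after 6 h.

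Among the HMG box factors, Tcf7l1 (ENSMUSG00000055799, chromosome 6, 72626378 to 72789254, minus strand) was higher in the treated libraries by more than its counting error. It had 3430 UMIs, that is 30.8 CPM in the control (29.8 to 31.8), 4512 UMIs, that is 42.2 CPM after 3 h (41.0 to 43.5) and 7762 UMIs, that is 55.3 CPM after 6 h (54.1 to 56.6). The order was control, 3 h, 6 h, without overlap. Its log2 ratio was 0.46 after 3 h (0.39 to 0.52) and 0.85 after 6 h (0.79 to 0.90). With TMM factors the ratios were 0.28 and 0.56, the latter just under 1.5-fold, and 0.73 and 0.95 by mean UMIs per cell. The antisense genes Gm15401 and Gm15402 within its span had 11 to 33 UMIs per library.

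Tcf7, which encodes the factor TCF1 (ENSMUSG00000000782, chromosome 11, 52252371 to 52283014, minus strand), had 982 UMIs, that is 8.81 CPM in the control (8.27 to 9.38), 753 UMIs, that is 7.05 CPM after 3 h (6.55 to 7.57) and 799 UMIs, that is 5.69 CPM after 6 h (5.31 to 6.10). It ran opposite to Tcf7l1, with the control highest and no overlap between libraries. The log2 ratio was -0.32 after 3 h (-0.46 to -0.18) and -0.63 after 6 h (-0.77 to -0.49). By mean UMIs per cell it was -0.052 after 3 h, close to equality, and -0.52 after 6 h.

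Lef1, the gene of an HMG box factor that is itself a target of the pathway (ENSMUSG00000027985, chromosome 3, 131110471 to 131224356, plus strand), had 28 UMIs in the control (18.6 to 40.5), 33 UMIs after 3 h (22.7 to 46.3) and 41 UMIs after 6 h (29.4 to 55.6). These were 0.251, 0.309 and 0.292 CPM. Their intervals overlapped, and no difference was detectable at this depth.

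Sp5 encodes a zinc finger transcription factor of the Sp family and is a direct target of the pathway (ENSMUSG00000075304, chromosome 2, 70474923 to 70477729, plus strand). It had 229 UMIs, that is 2.05 CPM in the control (1.80 to 2.34), 127 UMIs, that is 1.19 CPM after 3 h (0.991 to 1.41) and 56 UMIs, that is 0.399 CPM after 6 h (0.301 to 0.518). Each library was below the one before it in exposure, without overlap. The log2 ratio was -0.79 after 3 h (-1.11 to -0.47), -2.35 after 6 h (-2.81 to -1.94) and -1.57 between 6 h and 3 h (-2.05 to -1.11). It was between -2.64 and -2.14 after 6 h over the 9 alternatives.

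Nkd1, which encodes a Dishevelled-binding inhibitor (ENSMUSG00000031661, chromosome 8, 88521354 to 88594884, plus strand), had 100 UMIs in the control (81.4 to 121.6), 99 UMIs after 3 h (80.5 to 120.5) and 105 UMIs after 6 h (85.9 to 127.1). In CPM these were 0.897, 0.927 and 0.748. The ratio to the control had intervals that held 0 at both times, from -0.37 to 0.46 after 3 h and from -0.67 to 0.15 after 6 h, so this target gene was not separable from the control at this depth.

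**Figure D2:**
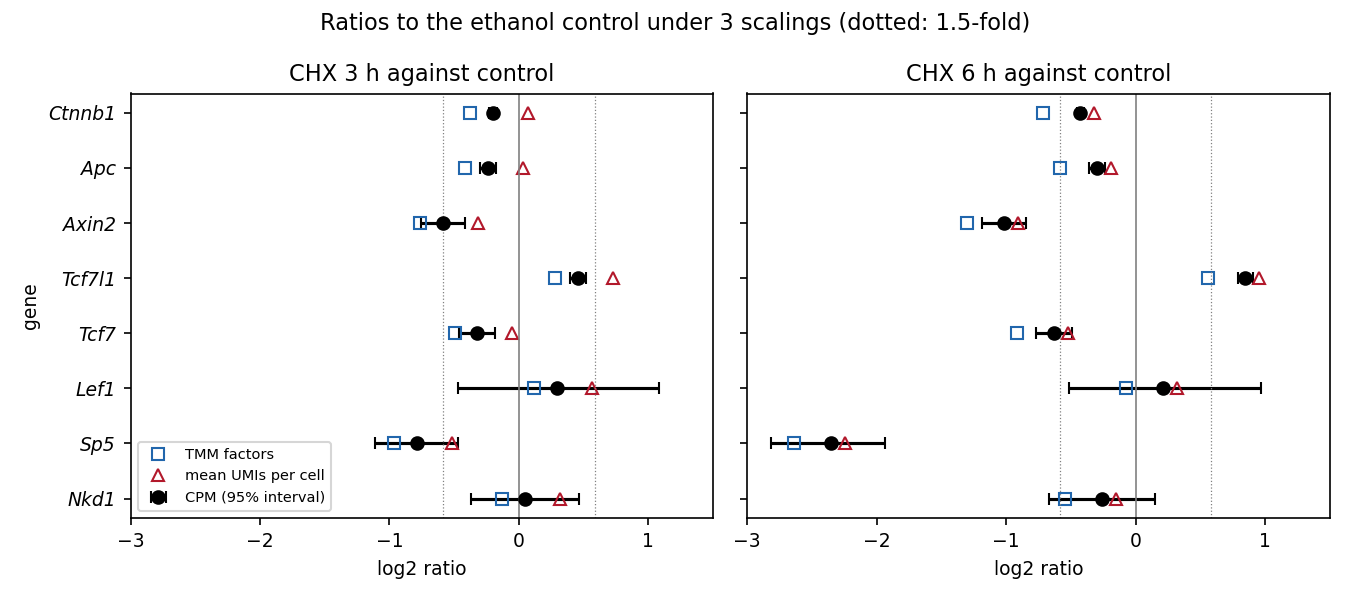
Log2 ratios to the ethanol control (x axis) of the 8 genes after 3 h and 6 h of cycloheximide by CPM (filled circles with 95% counting intervals), with TMM factors (squares) and by mean UMIs per cell (triangles), with dotted lines at 1.5-fold. Sp5, Axin2, Tcf7 and Tcf7l1 keep their side of 0 under the 3 scalings at both times, whereas Ctnnb1, Apc and Nkd1 change side at 3 h and Lef1 at 6 h.

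Only Ctnnb1, Apc and Tcf7l1 reached a mean of 10 CPM over the 3 libraries. Of these 3, 0 were past the fold after 3 h in either direction, against 13.9% of all 7608 genes above that floor higher and 2.13% lower. At 6 h 1 was past the fold and higher (Tcf7l1) and 0 were lower, against 22.1% of genes higher and 7.79% lower, so a value like that of Tcf7l1 was common. Their median log2 ratio was -0.20 after 3 h and -0.30 after 6 h, where the median of all genes was 0.11 and 0.17. Between 6 h and 3 h, 0 of the 3 were past the fold, against 1.74% of genes higher and 2.52% lower.

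Axin2, Tcf7 and Sp5 had means of 1 to 10 CPM. Of these 3, 2 were past the fold and lower after 3 h (Axin2 at the line, and Sp5), and all 3 after 6 h, while 0 were higher. By mean UMIs per cell 0 of the 3 were past the fold after 3 h (Sp5 had a log2 ratio of -0.52 and Axin2 -0.32) and 2 after 6 h (Axin2 and Sp5). Among all 4644 genes of 1 to 10 CPM, 5.92% were lower by the fold after 3 h and 11.0% after 6 h, 26.6% and 38.0% were higher, and the median log2 ratio was 0.19 and 0.34. Between 6 h and 3 h, 1 of the 3 (Sp5) was lower by the fold (2 by mean UMIs per cell, with Axin2), against 4.03% of these genes lower and 13.8% higher.

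The share of cells with a UMI was compared after each cell had been thinned to 15000 UMIs, which left out no cell. Tcf7l1 was detected in 35.0% of control cells (33.0 to 37.1), 42.3% after 3 h (40.0 to 44.7) and 52.3% after 6 h (50.4 to 54.3). The Axin2 share was 9.42% (8.23 to 10.7), 5.87% (4.81 to 7.08) and 4.93% (4.13 to 5.85), and the last 2 overlapped. Sp5 was detected in 66 of 2187 control cells or 3.02% (2.34 to 3.82), in 30 of 1739 cells or 1.73% after 3 h (1.17 to 2.45) and in 16 of 2554 cells or 0.626% after 6 h (0.358 to 1.02). The Sp5 intervals of the control and 3 h overlapped. A UMI of Tcf7l1 was thus detected in more cells of the treated libraries, and one of Axin2 or Sp5 in fewer. These shares follow the mean (Axin2 had a mean of 0.102 UMIs per thinned control cell), so whether fewer cells made a transcript is not shown.

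Ctnnb1 had a UMI in 91.9% of control cells, 88.4% after 3 h and 84.9% after 6 h, and Apc in 41.9%, 39.1% and 36.6%. For Tcf7 the shares were 11.2%, 9.37% and 8.65%, for Nkd1 1.42%, 1.21% and 1.10%, and for Lef1 0.412%, 0.403% and 0.313%. The order of each was that of the control, 3 h and 6 h, but neighbouring libraries overlapped for Apc, Tcf7, Nkd1 and Lef1. Without thinning the shares were 68.7%, 81.0% and 84.7% for Tcf7l1, 26.7%, 22.1% and 15.8% for Axin2, and 8.32%, 5.75% and 1.76% for Sp5. For the rest the unthinned shares were 99.4%, 99.3% and 99.02% for Ctnnb1, 77.5%, 77.7% and 74.0% for Apc, and 32.6%, 31.5% and 24.8% for Tcf7. For Nkd1 they were 4.48%, 5.29% and 3.88%, and for Lef1 1.14%, 1.61% and 1.41%.

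**Figure D3:**
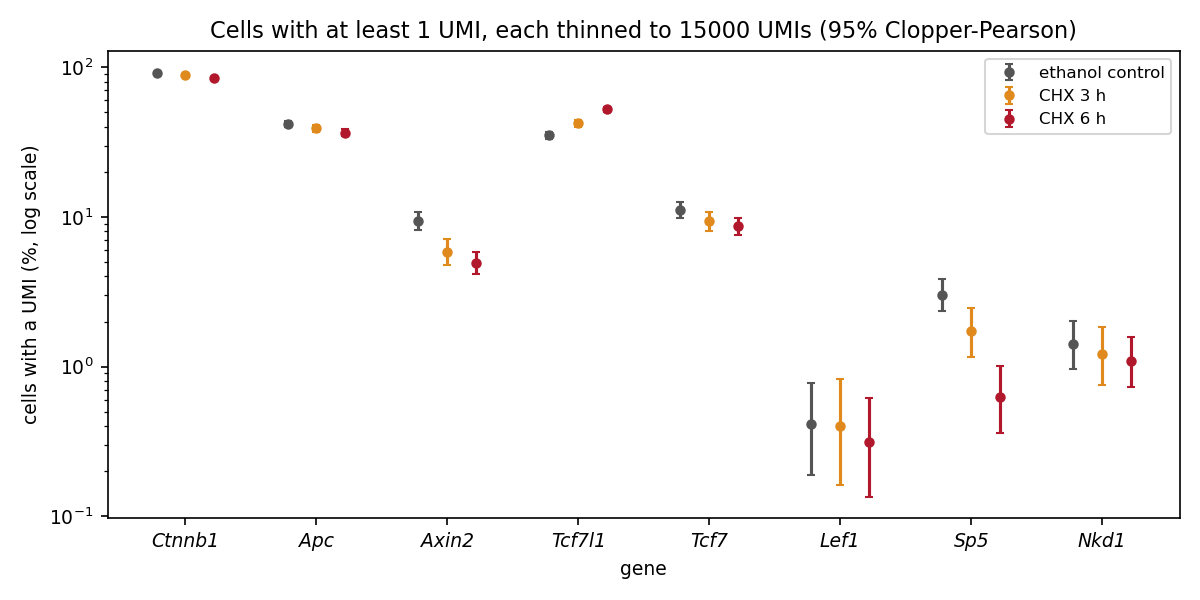
Percentage of cells with at least 1 UMI (y axis, log scale) for each gene in the 3 libraries, each cell thinned to 15000 UMIs, with 95% Clopper-Pearson intervals. Tcf7l1 goes from 35.0% to 52.3% of cells, while Sp5 goes from 3.02% to 0.626% and Axin2 from 9.42% to 4.93%.

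Free RNA can give a cell UMIs that it did not make, and no cell type lacking these genes was present for comparison. In barcodes of 10 to 100 UMIs, which hold mainly free RNA, Tcf7l1 had 29.7, 42.7 and 46.4 CPM and Ctnnb1 238.7, 216.4 and 153.5 CPM in the control, after 3 h and after 6 h. Axin2 had 27, 15 and 20 free UMIs and Sp5 had 10, 3 and 0. If 10% of the UMIs of each thinned cell were free RNA, that alone would give a UMI of Tcf7l1 to 4.36%, 6.20% and 6.73% of cells, of Ctnnb1 to 30.1%, 27.7% and 20.6%, of Axin2 to 1.12%, 0.679% and 0.762%, and of Sp5 to 0.416% in the control. All of these were below the shares measured. Col1a1, a fibroblast gene, had a UMI in 0.457%, 0.288% and 0.196% of thinned cells. Thy1, also listed as a fibroblast marker, had one in 2.79%, 1.67% and 1.41%. That was above the Nkd1 share in every library, and the Sp5 share was 3.02%, 1.73% and 0.626%. Free RNA at 10% would give a UMI of Thy1 to 0.250% of control cells. The Lef1 shares overlapped those of Col1a1 in every library, and no difference is read from them. In the control, 10% free RNA would give a UMI to 0.0417% of cells for Lef1 and 0.0833% for Col1a1, below both measured shares.

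The same ordering was seen in cells of low and high RNA content. With the cells of each library split into 3 nearly equal groups by UMIs, Tcf7l1 had 29.3, 41.0 and 53.0 CPM (control, 3 h, 6 h) in the lowest group, 27.8, 38.7 and 49.3 CPM in the middle group and 33.0, 44.5 and 59.3 CPM in the highest. Ctnnb1 had 176.3, 154.0 and 133.7 CPM, then 165.7, 141.5 and 122.3 CPM, then 177.0, 154.7 and 131.3 CPM in the same groups. For Axin2 the levels were 6.47, 5.16 and 4.05 CPM, then 6.83, 4.05 and 3.12 CPM, then 6.91, 4.58 and 3.25 CPM. By these levels each group had Tcf7l1 highest after 6 h and Ctnnb1 and Axin2 lowest after 6 h.

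Within a library, the spread between cells of Ctnnb1 was close to that of genes of like mean. The variance of its thinned counts was 1.13, 1.10 and 1.12 times the mean in the control, after 3 h and after 6 h, where genes of like mean had medians of 1.13, 1.12 and 1.10. For Tcf7l1 the ratio of variance to mean was 1.07, 1.15 and 1.16, against medians of 1.05, 1.06 and 1.07. For Sp5 it was 1.16, 1.22 and 0.994, against medians of 1.02, 1.02 and 0.994. These Sp5 values rest on 5, 4 and 0 cells with 2 or more UMIs. Across thinned cells, the 28 pairs of the 8 genes had Pearson's r from -0.024 to 0.073 in the control, from -0.035 to 0.081 after 3 h and from -0.032 to 0.062 after 6 h. Axin2 and Sp5 were found together in 7 control cells, where the product of their shares gives 6.22. Correlations this weak in sparse counts are not read as a finding.

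The genes whose pair of ratios lay nearest to each member were sought among 5568 genes of at least 20 CPM, by the Euclidean distance over the log2 ratios after 3 h and 6 h. Tcf7l1 was nearest to Hsf2bp (0.44 and 0.84) and Erlec1 (0.44 and 0.85), at distances of 0.012 and 0.013. Ctnnb1 was nearest to Plscr1 (-0.21 and -0.44, distance 0.012) and Vti1b (-0.21 and -0.43, distance 0.013). Apc was nearest to Ccdc90b (-0.24 and -0.29, distance 0.0036) and Tinf2 (-0.24 and -0.30, distance 0.0082). Within a distance of 0.1 lay 96 genes for Tcf7l1, 183 for Ctnnb1 and 244 for Apc, so these patterns over 3 libraries were shared by many genes.

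The rest of the pathway was described with a list of 104 further genes by role, of which 37 were above the floor of 10 CPM. That list, too, was chosen with earlier results of these data known. At 3 h 1 of the 37 was past the fold and higher (Sfrp4) and 1 was lower (Lgr4), beside 13.9% and 2.13% of all genes, with a median log2 ratio of -0.018. The floor is a mean over the 3 libraries, so a gene near it can pass only through the libraries where it is high. Lgr4, with a mean of 11.2 CPM, was under 10 CPM in both treated libraries. Sfrp4, with a mean of 11.6 CPM, was under 10 CPM in the control. At 6 h 4 were higher (Porcn, Fzd3, Sfrp4 and Tnks) and 9 were lower (Fzd5, Lgr4, Csnk1e, Ctbp1, Ctbp2, Ccnd1, Myc, Ctnna1 and Ctnnd1), with a median of -0.13. That is 4 of 37 beside 22.1% of all genes higher and 9 of 37 beside 7.79% lower. Between 6 h and 3 h, 0 were higher and 5 were lower (Fzd5, Lgr4, Csnk1e, Ctbp2 and Myc), beside 1.74% and 2.52% of all genes, with a median of -0.097.

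On the receiving side, Lgr4, a receptor of R-spondins that sustains Frizzled at the membrane, had 21.7 CPM in the control, 8.38 CPM after 3 h and 3.46 CPM after 6 h, log2 ratios of -1.37 (-1.48 to -1.26) and -2.65 (-2.79 to -2.51). Fzd5, a Frizzled receptor, had 42.9, 41.1 and 12.9 CPM, with ratios of -0.06 (-0.12 to 0.00) and -1.73 (-1.81 to -1.65). Fzd5 was thus near the control after 3 h and lower after 6 h. Porcn, the acyltransferase that lipidates Wnt proteins, had 13.0, 19.3 and 21.02 CPM, and Sfrp4, a secreted Frizzled-related protein, 5.85, 12.8 and 16.2 CPM. Both were higher in the treated libraries. Sfrp1 of the same family was lower, at 76.8, 61.5 and 53.0 CPM. All 19 Wnt ligands were under 10 CPM, and Wnt6 had the most UMIs, not scaled by length, with 943, 679 and 782.

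In the cytoplasm, Dvl2, a Dishevelled protein that relays the receptor signal, had 26.2, 32.5 and 37.3 CPM. Csnk1a1, the kinase that primes beta-catenin for GSK3, had 288.7, 325.5 and 304.3 CPM, with a log2 ratio after 6 h of 0.08 that became -0.21 with TMM factors. Of the 10 further genes of the destruction complex and its regulators above the floor, 8 were within the fold after 6 h. The exceptions were Tnks (higher) and Csnk1e (lower). Of the cadherin junction, alpha- and delta-catenin were below the control at both times. Ctnna1 had 275.3, 218.2 and 175.7 CPM, and Ctnnd1 63.9, 45.9 and 30.9 CPM. By mean UMIs per cell their 3 h ratios were -0.07 and -0.21. Cdh1 and Jup (gamma-catenin), of the same junction, were within the fold at both times, and Jup had 50.7, 52.4 and 44.0 CPM.

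In the nucleus, Tcf7l2, the HMG box factor outside the 8 genes, had 18.1, 20.8 and 22.9 CPM. Its log2 ratios were 0.20 after 3 h and 0.34 after 6 h, and 0.03 and 0.05 with TMM factors. Ep300, a histone acetyltransferase recruited by beta-catenin, had 50.8, 66.0 and 71.8 CPM, and Tle5, a short Groucho-related protein, 147.6, 132.9 and 129.3 CPM. By CPM all 3 were within the fold. By mean UMIs per cell Ep300 was past it, with log2 ratios of 0.65 after 3 h and 0.61 after 6 h. A pair of broadly used target genes was lower after 6 h, Ccnd1 (cyclin D1) with 119.5, 102.1 and 76.1 CPM and Myc with 35.8, 25.6 and 6.78 CPM. Both also receive input from other pathways.

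**Figure D4:**
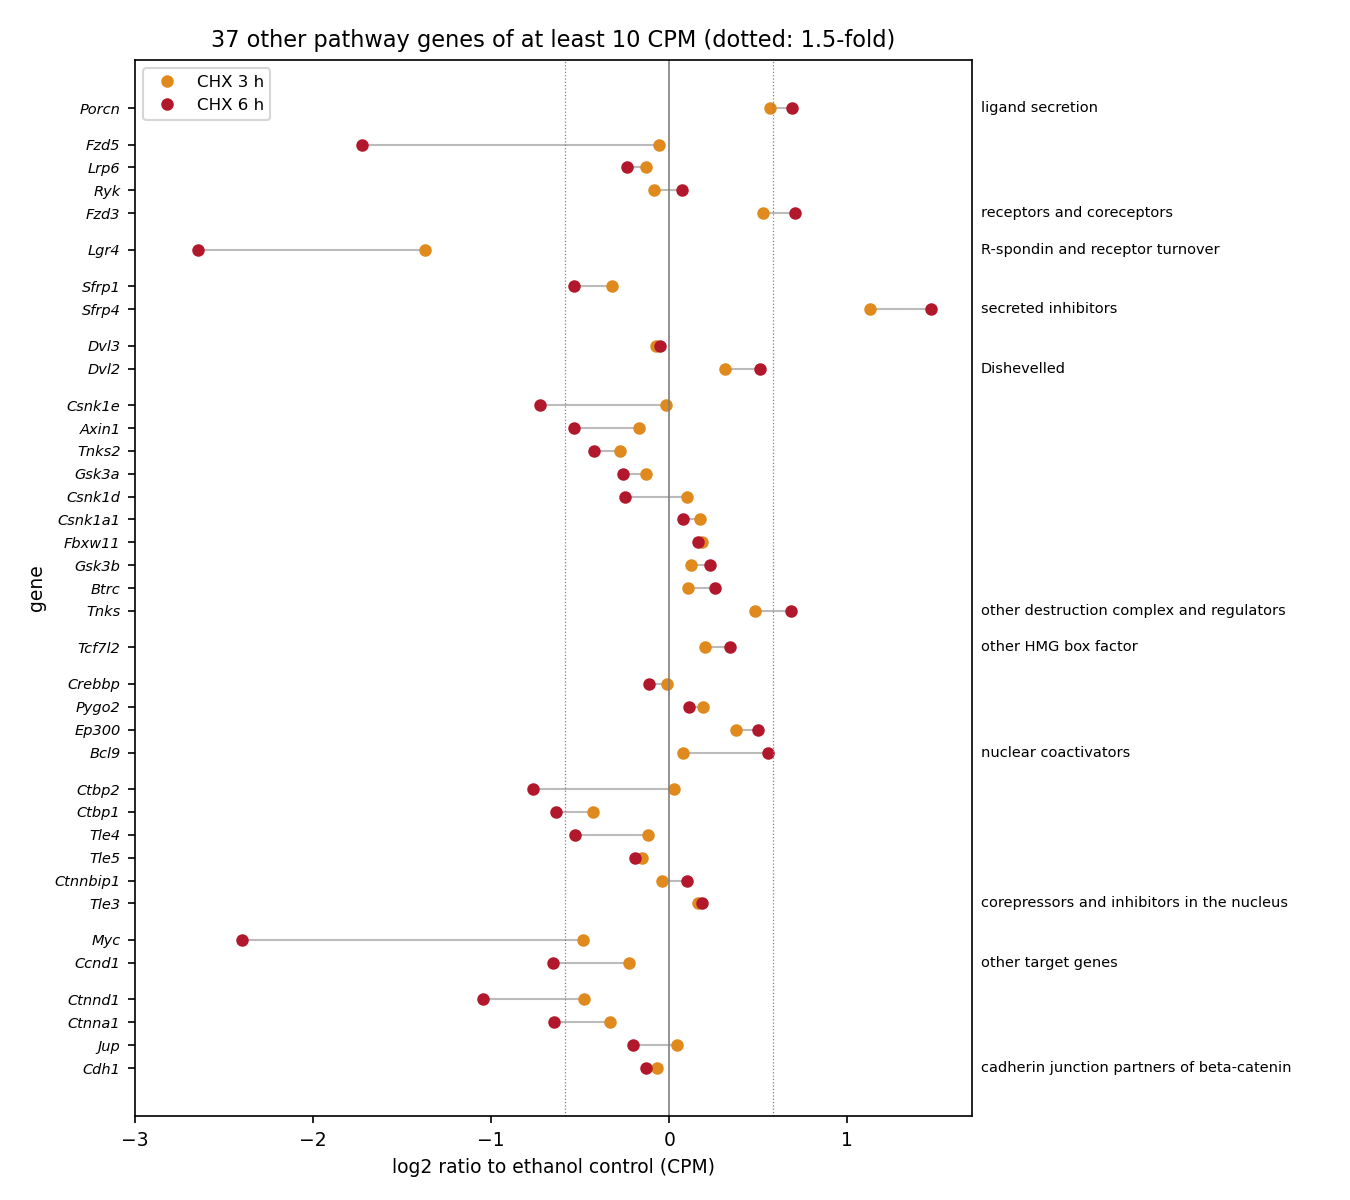
Log2 ratios to the ethanol control by CPM (x axis) after 3 h (orange) and 6 h (red) of cycloheximide for the 37 further pathway genes of at least 10 CPM, grouped by role, with dotted lines at 1.5-fold. Lgr4, Myc and Fzd5 lie furthest to the left after 6 h with ratios of -2.65, -2.40 and -1.73, and Sfrp4 furthest to the right with 1.47.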

How the data were processed

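The authors deposited raw UMI counts per gene and barcode, made with Cell Ranger 4 per the file headers and with Cell Ranger 4.0.0 on mm10 per the submitters' processing notes. The annotation is not given in the sources used here. Each table listed 6794880 barcodes with no cells called. The tagged molecule is polyadenylated RNA, captured at its 3′ end, and how reads of overlapping genes were counted is not stated. Gene positions come from GENCODE M21 on GRCm38, in which 32158 of the 32285 identifiers were found.

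Barcodes of at least 15000 UMIs and 1 to 20% mt- UMIs were summed per library and scaled to CPM. Log2 ratios used a prior of 0.5 counts. The floor for list counts was a mean of 10 CPM. Doublets were not removed. For shares and spread, 15000 UMIs were drawn from each cell without replacement. The ratio script was tested on simulated data. Alternatives were mean UMIs per cell, TMM factors (edgeR 4.0.16, R 4.3.3), other cell filters, leaving out cells with more than 2 times the median UMI count, subtraction of 10% free RNA, a prior of 5 counts and other floors. Python 3.11.15, numpy 2.4.6 and scipy 1.17.1 were used.

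The members and lists were chosen with earlier results of these data known, and the comparison with genes of 1 to 10 CPM was added after the data were seen. Named further genes were those above the floor with a log2 ratio of at least 1 in size at either time, and the most abundant of each role. Other genes are named to complete a count or were chosen after their values were seen.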

Additional observations from a re-analysis of the deposited data

How the results depend on the processing

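The floor on CPM and the scaling moved the lists most. Leaving out the floor moved 14 of 18 list counts and medians, TMM factors 10 and mean UMIs per cell 9. The median log2 ratio of the 3 members above the floor, -0.20 after 3 h, -0.30 after 6 h and -0.056 between 6 h and 3 h, became -0.38, -0.58 and -0.17 with TMM factors and 0.067, -0.19 and -0.22 by mean UMIs per cell. TMM factors left 0 members past the fold and higher after 6 h and made 1 lower (Ctnnb1), and mean UMIs per cell made 1 higher after 3 h (Tcf7l1). For the further pathway genes, the medians of -0.018, -0.13 and -0.097 became -0.19, -0.42 and -0.21 with TMM factors and 0.25, -0.023 and -0.26 by mean UMIs per cell. TMM factors gave 4 such genes lower after 3 h, and 1 higher and 13 lower after 6 h. Mean UMIs per cell gave 5 higher after 3 h, and 7 higher and 6 lower after 6 h, without Ctbp1, Ccnd1 and Ctnna1 among the lower. All genes shifted together, by -0.17 after 3 h and -0.29 after 6 h with TMM factors and by 0.27 and 0.11 by mean UMIs per cell. The share of all genes past the fold was not recomputed under these scalings. The counts here thus have no background and are not read as particular to the pathway.

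Without the lower mitochondrial limit, which brings back 62 control barcodes, the members' medians were -0.15 after 3 h and -0.23 after 6 h and the pathway median after 6 h was -0.070. The order-of-magnitude rule gave -0.15, -0.23 and -0.072. Subtracting 10% free RNA gave 2 pathway genes higher after 3 h. With a floor of 20 CPM, 0 pathway genes were higher and 0 lower after 3 h, 1 was higher after 6 h, and the 6 h median was -0.20. Without a floor, members lower by the fold were 2 after 3 h, 3 after 6 h and 1 between 6 h and 3 h, and their median was -0.36 after 6 h and -0.27 between 6 h and 3 h. Pathway genes higher were then 26, 35 and 23 and lower 8, 20 and 15, with medians of 0.10, 0.14 and 0.011. More genes enter, many with few UMIs. The share of all genes past the fold was not recomputed without a floor or under the other settings, so these counts have no background beside them.

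For the single members, 179 of 216 ratios stayed within the counting interval of the reported value and none past the fold changed sign. Signs differed for Ctnnb1 and Apc after 3 h (mean UMIs per cell), and for Lef1 after 6 h and Nkd1 after 3 h (TMM factors, and cells of high UMI count left out), whose intervals held 0. Of 120 shares of cells, 76 stayed within their interval, but all 24 moved without thinning. No paired analysis was possible because each group had 1 library. Depth limits Lef1, Nkd1 and Sp5 most, and counting intervals leave out variation between cultures and library preparations.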

Other observations

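Of the 104 further pathway genes, 67 were under the floor of 10 CPM, 31 of them at 1 to 10 CPM and 36 under 1 CPM. Of the 31, 11 were past 1.5-fold and higher after 6 h and 7 were lower, beside 38.0% and 11.0% of all genes of 1 to 10 CPM. At 3 h 6 were higher and 2 lower, beside 26.6% and 5.92%. The genes below were chosen after their values were seen.

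The 19 Wnt ligands went both ways. After 6 h the counting interval of the ratio lay above 0 for 10 of them, below 0 for 3 (Wnt3a, Wnt5a and Wnt6) and held 0 for 6. The share of all genes of like level with such intervals was not computed, so this split is not read as particular to the ligands. Wnt3a had 23, 10 and 7 UMIs, a ratio of -1.98 after 6 h (-3.51 to -0.78), and Wnt5a 40, 29 and 25 UMIs, with an interval from -1.79 to -0.25. Wls, which carries Wnt proteins to the cell surface, had 396 UMIs in the control, 874 after 3 h and 2121 after 6 h, or 3.55, 8.18 and 15.1 CPM, a log2 ratio of 2.09 after 6 h (1.93 to 2.25). Wnt4 had 29, 128 and 424 UMIs, a ratio of 3.51 after 6 h (2.99 to 4.13). Wnt10b had 3, 20 and 88 UMIs, with an interval after 6 h from 2.95 to 6.85. Rspo1, an R-spondin, had 209, 116 and 116 UMIs, a ratio of -1.18 after 6 h. Among receptors and secreted inhibitors, Kremen2, a receptor for Dkk inhibitors, had 168, 328 and 993 UMIs, and Dkk3 had 66, 119 and 450. Fzd2, a Frizzled receptor, had 623, 925 and 1947 UMIs, with ratios of 0.63 and 1.31.

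Target genes went both ways. Sp8, a relative of Sp5, had 15, 102 and 209 UMIs, a ratio of 3.42 after 6 h (2.71 to 4.33), where that of Sp5 was -2.35. Notum, a secreted deacylase of Wnt proteins and a target gene, had 810, 681 and 628 UMIs, a ratio of -0.70 after 6 h (-0.85 to -0.55). Tle1, a Groucho corepressor that had 12.7 CPM in the control, had 7.45 CPM after 3 h and 5.61 CPM after 6 h, with ratios of -0.77 and -1.18. The direction of these genes after 6 h was the same with TMM factors and by mean UMIs per cell.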
